A study of Mus musculus with 34 samples.

Results

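Anterior tibialis muscle of mice that lack muscle glycogen synthase was compared with the same muscle of wild-type mice on 8 of the 34 arrays of the series. The 8 were all the arrays labelled as tibialis. Replicates 1 to 4 of the knockout (MGSKO) and replicates 1 to 4 of the wild type (WT) came from mice aged 3 months, all of the mixed C57BL6/129SV strain, and about 5 µg of total RNA went into each target. The other arrays held 3-month gastrocnemius (3 MGSKO and 5 WT), 8-month gastrocnemius (5 GSL30 and 5 WT) and 3-month liver (4 MGSKO and 4 WT). GSL30 mice are known as a transgenic line with extra glycogen synthase in muscle, and the MGSKO line as a disruption of Gys1 in the whole body that many pups do not survive. The labels do not say whether arrays came from separate animals or litters, so p-values measure only the spread between these arrays, which may be technical.

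Glycogen synthase lengthens glycogen chains by adding glucose from UDP-glucose, and branching enzyme then makes the side chains. Muscle uses the product of Gys1 and liver that of Gys2. Muscle glycogen is the local store of glucose that contraction draws on through glycogen phosphorylase, and the tibialis of the mouse is made mostly of fast fibres that rely on it.

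Values are intensities on a linear scale as deposited, and each change is MGSKO minus WT on the log2(intensity + 50) scale with its standard error (SE) from limma, with 4 and 4 arrays throughout. A probe set was called where its adjusted p, by Benjamini-Hochberg over 13576 probe sets, was under 0.05. Array medians ran from 329 to 414.7, and correlations between arrays were 0.953 to 0.980 within MGSKO, 0.942 to 0.971 within WT and 0.936 to 0.964 between them. Muscle genes were bright on all 8 arrays: Acta1, skeletal actin, read 47073 to 49667 in MGSKO and 42257 to 52674 in WT, while Alb of hepatocytes stayed at 337 to 497 in MGSKO and 319 to 510 in WT. The Y-linked Eif2s3y read 1316 to 1611 in MGSKO and 1047 to 1583 in WT.

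WT replicate 4 stood apart from the other WT arrays. On the first principal component, which held 33.3% of the variance, MGSKO arrays lay at −22.8 to −7.12, WT replicate 4 at −11.5 and the other WT arrays at 16.3 to 33.5. MGSKO replicate 4 stood apart on the second component (19.1%), at −34.2. Where leaving out WT replicate 4 changed a call, the value without it is given.

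In knockout tibialis 190 of 13576 probe sets were called (1.4%), 90 higher (0.663%) and 100 lower (0.737%). The groups did not overlap for any of the 190, and over all 13576 this held for 1368 (10.1%). By gene, 151 of 8259 were called (1.83%), 73 higher (0.884%) and 78 lower (0.944%), where a gene counts if any of its probe sets does. Of the 151, 78 had several tested probe sets, and in 13 of these 78 every tested probe set was called. In 4 called genes a tested probe set had the opposite sign. As background for the lists below, 884 of the 8259 genes were higher and 703 lower at unadjusted p under 0.05 by limma. Positive changes of the brightest probe set numbered 4504, and 3119 with a common median. Over probe sets, 2032 of 13576 stood at unadjusted p under 0.05 (15%). Of the 190, 68 differed more than 2-fold (0.501%), 31 higher and 37 lower. The median change over all probe sets was 0.04, and scaling the arrays to a common median moved it to −0.05 and the calls to 50 higher and 108 lower. Without WT replicate 4 there were 300 calls (2.21%) in 243 genes (2.94%), of which 164 were among the 190, and without MGSKO replicate 2 there were 63. Of the 119 called probe sets described below, 51 kept the call in each of the 8 fits with 1 array left out. Leaving out MGSKO replicates 1 to 4 in turn ended 54, 65, 57 and 41 of these calls. Leaving out WT replicates 1 to 4 in turn ended 54, 45, 53 and 14 of 116, and a common median ended 17 of 119. Those 17 were the calls of Abcg2, Chrna1, Cryab, Dtna, Hk2, Inha, Krtap5-1, Mid1ip1, Mtor, Pdhb, Prmt3, Slc25a20 and Ushbp1, and 1 call each among several for Egln3, Plpp1, Tecr and Ugp2. Called genes described without a remark kept the call in all 8 such fits, apart from Agt, which was tested in 4 of them and called in all 4.

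Gys1 itself was nearly gone from the MGSKO arrays and bright on every WT array, WT replicate 4 included. Its brighter probe set read 34.2, 34.6, 58.7 and 72.5 in MGSKO and 9636, 9958, 9308 and 8184 in WT (−6.56, SE 0.15, adjusted p = 3.06e-08). The other one read 17.1, 14.8, 37.4 and 24.4 in MGSKO and 1462, 2630.4, 1716 and 3809.8 in WT (−4.97, SE 0.27, adjusted p = 3.97e-05). The MGSKO values lie far below the array medians, and the labels do not say which part of the gene was disrupted.

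Genes that act just before and just after glycogen synthase were higher in knockout tibialis, while no gene of glycogen breakdown was called. Of 10 tested genes of glycogen synthesis 2 were called higher (Gbe1 and Ugp2) and 1 lower (Gys1), with a list median of 0.07 against 0.03 over all genes. Gbe1, which encodes the branching enzyme, read 3273, 3183, 3250.3 and 2946 in MGSKO and 1459, 1399, 1303 and 1438 in WT. Every MGSKO array was at least 2.02-fold above every WT array (1.15, SE 0.10, adjusted p = 0.000699). Ugp2, the enzyme that makes UDP-glucose, read 12118, 13290.4, 12660.3 and 12205 in MGSKO and 8101, 5536, 5519 and 7779 in WT (0.92, SE 0.15, adjusted p = 0.0202). The WT arrays fell into a lower and a higher pair, and both stayed below every MGSKO array. Ugp2 was called by 2 of its 5 tested probe sets, the second at 0.77 (adjusted p = 0.0402), and the other 3 stood at 0.36 to 0.46 without passing. With 1 array left out the call was kept for the first probe set in 2 of 8 fits (adjusted p up to 0.0825) and the second in 2 (adjusted p up to 0.121), where the second stood at adjusted p = 0.0514 without WT replicate 4. Stbd1, which encodes a protein that binds glycogen and anchors it to membranes, read 2063, 2809.6, 3110.4 and 2421 in MGSKO and 1340.2, 1823, 994 and 1259 in WT. Its groups did not overlap, but the change was just short of the threshold (0.93, SE 0.19, adjusted p = 0.0531).

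Of 9 tested genes of glycogen phosphorylase, debranching and phosphorylase kinase, 1 had a positive change and 0 were called by limma (0 higher and 3 lower at unadjusted p under 0.05), and the median was −0.23. The summed intensity of the list was 54673 to 56954 in MGSKO and 60641 to 73005 in WT, so the groups did not overlap. Sums also separated in lists with 0 calls and a median near 0. The calcium handling list, for example, summed to 149906 to 153524 in MGSKO and 155124 to 163222 in WT (median 0.03). Sums here and below are therefore description only. The members nearest to the threshold encode subunits of phosphorylase kinase, which switches phosphorylase on. Phkg1, the catalytic subunit, read 4009.7, 3868, 3658 and 2909 in MGSKO and 4602, 5127, 4589 and 4976 in WT (−0.42, SE 0.12, adjusted p = 0.157). Phka1 stood at −0.35 and Phkb at −0.44, with adjusted p = 0.187 and 0.191.

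The protein phosphatase 1 list held the largest fall after Gys1. Ppp1r1a encodes inhibitor-1, which restrains the phosphatase that removes phosphate from glycogen synthase and phosphorylase. It read 273, 158, 189 and 104 in MGSKO and 1667, 1756, 1848 and 1953 in WT (−3.05, SE 0.20, adjusted p = 0.000182), and the highest MGSKO array was 6.11-fold below the lowest WT array. It was the only called member of 10, whose median was 0.04, and 6 of the 10 had positive changes (3 of 10 with a common median).

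**Figure D1:**
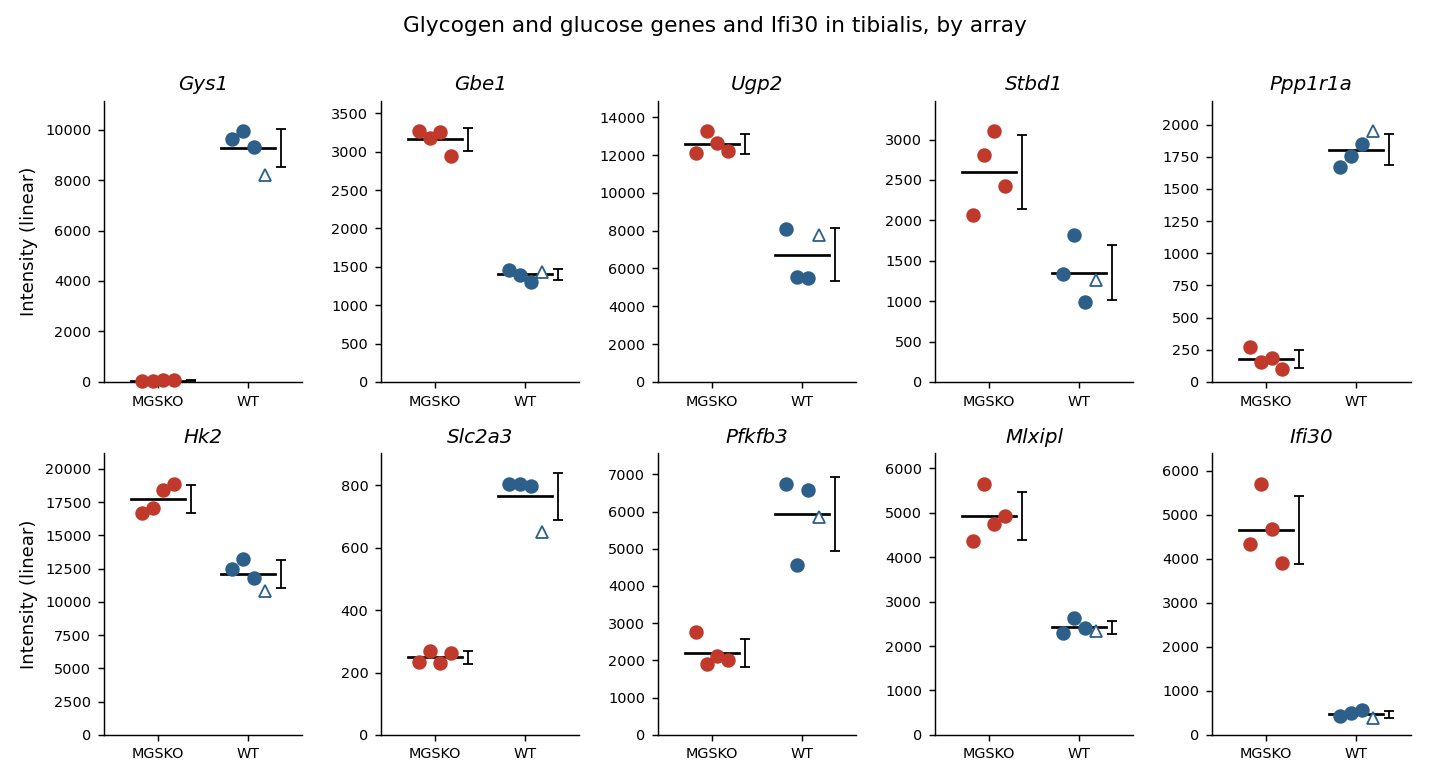
Intensity on a linear scale in the 4 MGSKO and 4 WT tibialis arrays for 10 genes, each by 1 probe set; lines are means, bars beside them the SD, and the open triangle is WT replicate 4. The MGSKO points lie above all WT points for Gbe1, Ugp2, Stbd1, Hk2, Mlxipl and Ifi30 and below them for Gys1, Ppp1r1a, Slc2a3 and Pfkfb3.

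Glucose entry and the first steps of glycolysis changed gene by gene and in both directions. Of 24 tested genes of glucose uptake and glycolysis 1 was called higher (Hk2) and 2 lower (Slc2a3 and Pfkfb3), with 0 higher and 3 lower without WT replicate 4, and the median was 0.02. Slc2a3, the glucose transporter GLUT3, read 234, 269, 229 and 263 in MGSKO and 806, 805, 799 and 651 in WT (−1.45, SE 0.11, adjusted p = 0.000458). Its second called probe set read 161, 122, 112 and 295 in MGSKO and 617, 707, 617 and 391 in WT (−1.55, SE 0.25, adjusted p = 0.0202). In both, WT replicate 4 was the lowest WT array and still above every MGSKO array, and the call of the second was kept in 2 of 8 fits with 1 array left out (adjusted p up to 0.0797). Slc2a1, the GLUT1 transporter, read 340.2, 312, 381 and 483 in MGSKO and 872, 582, 832 and 603 in WT, just short of the threshold (−0.84, SE 0.17, adjusted p = 0.052; adjusted p = 0.0443 without WT replicate 4). Pfkfb3 encodes the enzyme that makes fructose 2,6-bisphosphate, an activator of glycolysis. It read 2764, 1903, 2106 and 2022 in MGSKO and 6749, 4576, 6572 and 5858 in WT (−1.41, SE 0.16, adjusted p = 0.00329), with the lowest WT array well above the highest MGSKO array. Its dimmer probe set overlapped between the groups and was not called (−0.37, adjusted p = 0.648).

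Hk2, the insulin-responsive hexokinase that traps glucose in the fibre, read 16688, 17071, 18425 and 18897 in MGSKO and 12496, 13235, 11785 and 10792 in WT (0.56, SE 0.11, adjusted p = 0.0408). The groups did not overlap, yet no fit with 1 array left out kept this call (adjusted p = 0.0514 without WT replicate 4 and up to 0.126) and a common median ended it (0.46, adjusted p = 0.169). Mlxipl encodes ChREBP, a transcription factor that responds to glucose, and read 4361, 5658, 4756 and 4923 in MGSKO and 2297, 2636, 2413 and 2338 in WT (1.01, SE 0.11, adjusted p = 0.00286). Every MGSKO array was at least 1.65-fold above every WT array.

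Beyond glycolysis, 1 of 9 tested genes of the pyruvate dehydrogenase complex and its kinases was called. Pdhb, a subunit of the enzyme that turns pyruvate into acetyl-CoA, read 22917, 20688, 23347 and 23298 in MGSKO and 14724, 15711, 14388 and 14282 in WT (0.61, SE 0.10, adjusted p = 0.0191). MGSKO replicate 2 was the lowest of a narrow group, and the call was kept in 2 of 8 fits with 1 array left out (adjusted p up to 0.0783) and lost with a common median (0.51, adjusted p = 0.0939). Dlat, the next subunit of that complex, read 7481, 7310.4, 7208 and 5746 in MGSKO and 4819.9, 4456, 4396 and 5591 in WT and did not pass (0.52, SE 0.13, adjusted p = 0.0949). Of 22 citric acid cycle and related genes only Me1 was called, the malic enzyme of the cytosol that makes NADPH. Me1 read 3422, 2722, 2872 and 3088 in MGSKO and 6571, 6702, 4261 and 4976 in WT (−0.86, SE 0.16, adjusted p = 0.038), and its call was kept in 2 of 8 fits with 1 array left out (adjusted p up to 0.124). Got2, which moves amino groups between aspartate and glutamate in mitochondria, stood at 0.74 by its dimmer probe set (adjusted p = 0.12). Of 47 tested genes of oxidative phosphorylation 0 were called by limma (2 higher and 0 lower at unadjusted p under 0.05), and their changes ran from −0.19 to 0.49. Positive changes numbered 31 as deposited and 10 with a common median.

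Egln3, the prolyl hydroxylase that marks hypoxia-inducible factors and is itself raised by them, was higher by both probe sets. The brighter read 2620.5, 3005, 2603 and 2546 in MGSKO and 1262, 1029.5, 1178 and 1171 in WT (1.18, SE 0.11, adjusted p = 0.00109), and the dimmer stood at 1.18 (adjusted p = 0.0437), a call kept in 1 of 8 fits with 1 array left out (adjusted p = 0.0529 without WT replicate 4). Vegfa, a growth factor for vessels, read 4419, 4525, 3999.9 and 4629 in MGSKO and 3205, 2932, 2538 and 3438 in WT and did not pass (0.54, SE 0.12, adjusted p = 0.0725; adjusted p = 0.045 without WT replicate 4).

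The largest rise of all was that of Ifi30, which encodes the thiol reductase of lysosomes that opens disulphide bonds of proteins. It read 4325, 5702, 4668 and 3897 in MGSKO and 421, 499, 559.5 and 380 in WT (3.19, SE 0.16, adjusted p = 2.24e-05), a 10.0-fold ratio of mean intensity, and every fit with 1 array left out kept the call. Among 26 tested genes of autophagy and lysosomes it was the only call (1 higher and 1 lower without WT replicate 4), and 8 of the 26 had positive changes (median −0.14). Creg1, Npc1, Sort1 and Cst3 are outside that list and were picked with their values in view. Creg1, a secreted and lysosomal glycoprotein, read 1819, 1512, 1733 and 1833 in MGSKO and 3515, 3386, 3592 and 3270.1 in WT (−0.98, SE 0.10, adjusted p = 0.0022). Npc1, which carries cholesterol out of lysosomes, read 292 to 471 in MGSKO and 575 to 874 in WT (−0.93, SE 0.16, adjusted p = 0.0293). Sort1, a sorting receptor that takes part in GLUT4 vesicle formation, read 1196 to 1261 in MGSKO and 1644 to 2162 in WT (−0.68, SE 0.12, adjusted p = 0.0232), and Cst3, a cathepsin inhibitor, stood at −0.57 (adjusted p = 0.027). With single arrays left out, the call was kept for Npc1 in 2 of 8 fits (adjusted p up to 0.0966), Sort1 in 2 (adjusted p up to 0.0914) and Cst3 in 1 (adjusted p up to 0.105).

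ChREBP works through pairs of E-box motifs, and the E-box CACGTG also lies at the core of the element shared by many lysosomal genes. The 250 bases before the listed start sites (RefSeq, GRCm38.p6) were searched on both strands for it. The promoters of Ifi30, Mlxipl and Pfkfb3 are printed as examples picked from the called genes that hold a match, which are counted below. The match is in capitals, and each promoter is read 5′ to 3′ on the strand of its gene. Ifi30 lies on the minus strand at chr8:70766664-70766913, this start of Mlxipl on the plus strand at chr5:135089640-135089889, and this start of Pfkfb3 on the minus strand at chr2:11502091-11502340. Mlxipl and Pfkfb3 each have another listed start with no match.
Ifi30: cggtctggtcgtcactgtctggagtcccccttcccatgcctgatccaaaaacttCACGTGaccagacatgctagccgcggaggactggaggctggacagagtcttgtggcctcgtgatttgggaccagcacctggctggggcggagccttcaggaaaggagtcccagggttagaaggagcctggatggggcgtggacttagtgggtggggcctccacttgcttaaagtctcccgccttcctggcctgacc
Mlxipl: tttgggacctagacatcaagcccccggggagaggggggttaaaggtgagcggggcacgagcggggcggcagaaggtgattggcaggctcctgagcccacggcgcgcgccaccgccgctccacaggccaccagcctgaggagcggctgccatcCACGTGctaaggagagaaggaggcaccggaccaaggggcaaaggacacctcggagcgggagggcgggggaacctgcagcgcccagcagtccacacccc
Pfkfb3: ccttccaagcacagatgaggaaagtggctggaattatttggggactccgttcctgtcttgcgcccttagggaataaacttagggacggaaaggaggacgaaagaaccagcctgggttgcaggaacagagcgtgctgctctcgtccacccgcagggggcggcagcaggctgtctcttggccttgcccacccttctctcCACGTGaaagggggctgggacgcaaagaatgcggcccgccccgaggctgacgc
A match was present for 8 of 62 called higher genes with a listed promoter (12.9%), 5 of 62 called lower genes (8.06%) and 683 of 6702 tested genes (10.2%). The half-site AAGGTCA of estrogen-related receptors was found for 1 of 62 (1.61%) in each direction and 3.52% of tested genes. A sterol response element, TCACCCCAC, was found for 0 called genes and 0.716% of tested genes. The shares of called genes thus lay near those of all tested genes.

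Some genes that store or build lipid were called higher, and the carrier that brings fatty acids into mitochondria was called lower. Of 14 genes of lipid droplets and lipolysis 2 were called higher and 0 lower (median 0.14). G0s2, which inhibits the main triglyceride lipase, read 7476, 5624, 3333 and 5381 in MGSKO and 775, 1830, 1385 and 1678 in WT (1.92, SE 0.30, adjusted p = 0.0155). MGSKO replicate 3 was the lowest of its group and still well above the highest WT array, and 6 of 8 fits with 1 array left out kept the call (adjusted p up to 0.064, without MGSKO replicate 2 or WT replicate 3). Plin3, a coat protein of lipid droplets, read 4265, 3441, 3717 and 3805 in MGSKO and 1759, 2312, 1598 and 1568 in WT (1.07, SE 0.14, adjusted p = 0.00853).

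Of 18 genes of fatty acid synthesis and its regulators 3 were called higher, Mlxipl, Mid1ip1 and Tecr, and 0 lower (3 higher and 1 lower without WT replicate 4; median 0.06). Mid1ip1, whose product activates acetyl-CoA carboxylase, read 4823, 4332, 4864 and 3318 in MGSKO and 2365, 2497, 1635 and 2491 in WT (0.94, SE 0.18, adjusted p = 0.0374). WT replicate 3 was the lowest WT array, and MGSKO replicate 4 the lowest MGSKO array without reaching the WT range. Tecr, the last enzyme of the cycle that lengthens very long fatty acids, read 12844 to 15318 in MGSKO and 6878 to 9125 in WT (0.89, SE 0.12, adjusted p = 0.00899). Its brighter probe set read 32149 to 33292 in MGSKO and 18245 to 23389 in WT (0.61, SE 0.11, adjusted p = 0.0295). Scd2, a desaturase, read 1002 to 1149 in MGSKO and 1374 to 1778 in WT, just short of the threshold (−0.54, SE 0.11, adjusted p = 0.0523; adjusted p = 0.0359 without WT replicate 4). Of 11 genes of cholesterol synthesis 0 were called by limma (1 higher and 3 lower at unadjusted p under 0.05).

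Of 30 genes of fatty acid uptake and oxidation 1 was called higher and 1 lower, and 9 had positive changes (median −0.07; 5 positive with a common median). Slc25a20, the carnitine and acylcarnitine carrier of the inner mitochondrial membrane, read 1848, 1601, 1516 and 1247 in MGSKO and 3335, 3152, 3090.2 and 2175 in WT (−0.89, SE 0.17, adjusted p = 0.0372). WT replicate 4 lay closest to the MGSKO arrays, and the adjusted p was 0.0131 without it. Acads and Acadm, dehydrogenases of short and medium chains, stood at −0.67 and −0.44 (adjusted p = 0.0644 and 0.144) with groups that did not overlap. In whole muscle, fewer cells of a type and less RNA per cell cannot be told apart, which bears on Fabp4, a fatty acid binding protein of capillaries and adipocytes. It was called by 1 of 4 tested probe sets, which read 1308, 1479, 1527 and 1555 in MGSKO and 478, 828, 555 and 678 in WT (1.17, SE 0.16, adjusted p = 0.00899). Its brightest probe set was not called (0.25, adjusted p = 0.311).

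Plpp1 and Lpgat1, enzymes of phospholipid metabolism, were picked with their values in view. Plpp1, a phosphatase that makes diacylglycerol, read 4225 to 5084 in MGSKO and 2719 to 2854 in WT (0.74, SE 0.10, adjusted p = 0.00957). A second probe set of Plpp1 stood at 0.79 (adjusted p = 0.0434, and 0.0597 without WT replicate 4), and Lpgat1, an acyltransferase, stood at 0.72 (SE 0.12, adjusted p = 0.0216). Across these lipid genes, leaving out 1 array kept the call for Mid1ip1 in 2 of 8 fits (adjusted p up to 0.119), the brighter probe set of Tecr in 1 (adjusted p up to 0.104), Slc25a20 in 1 (adjusted p up to 0.113), the first probe set of Plpp1 in 7 (adjusted p up to 0.0506), the second in 0 (adjusted p up to 0.139) and Lpgat1 in 2 (adjusted p up to 0.0896). A common median ended the calls of Mid1ip1 and Slc25a20, with adjusted p = 0.0783 and 0.0527, and those of the brighter probe set of Tecr and the second of Plpp1, with adjusted p = 0.114 and 0.0986.

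In the list of ketone bodies and acetoacetate genes were called in both directions, cytosolic Aacs higher and mitochondrial Oxct1 and Adhfe1 lower. Aacs, which activates acetoacetate in the cytosol for lipid synthesis, read 1058, 1081, 1274 and 1105 in MGSKO and 198, 313, 376 and 283 in WT (1.81, SE 0.16, adjusted p = 0.00104). The second called probe set read 872, 687, 899.7 and 901 in MGSKO and 209.8, 195, 193 and 287 in WT (1.72, SE 0.14, adjusted p = 0.000699). On both, every MGSKO array was at least 2.39-fold above every WT array. Oxct1, the transferase that activates acetoacetate in mitochondria for oxidation, read 7447, 5995, 6703 and 6646 in MGSKO and 13171, 14617, 13215 and 12967 in WT by its brightest called probe set (−1.01, SE 0.11, adjusted p = 0.0022). The other called probe sets of Oxct1 stood at −1.40 and −0.81 (adjusted p = 0.00271 and 0.0498), and the fourth overlapped between groups at −0.39. The weakest of the called probe sets kept its call in 1 of 8 fits with 1 array left out and stood at adjusted p = 0.0693 without WT replicate 4. Adhfe1, which oxidises 4-hydroxybutyrate in mitochondria, read 362, 294, 309 and 372 in MGSKO and 1336, 985, 1179.6 and 1263 in WT (−1.69, SE 0.13, adjusted p = 0.000458). Its second probe set stood at −1.06 (adjusted p = 0.00928). These were 3 of the 5 tested genes of the ketone list, in which Adhfe1 does not act on a ketone body itself.

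Branched-chain amino acid breakdown was called lower at several steps. Of 16 tested genes 0 were called higher and 4 lower, and 1 had a positive change (median −0.27, and −0.32 without WT replicate 4). The summed intensity of the list was 35130.1 to 38617 in MGSKO and 45809 to 47086 in WT. Bckdhb, a subunit of the branched-chain ketoacid dehydrogenase that commits these amino acids to breakdown, read 855, 796, 666 and 604 in MGSKO and 1709.9, 1835, 1643 and 1367 in WT (−1.12, SE 0.14, adjusted p = 0.00614). Acadsb, which acts next on the isoleucine branch, read 841, 733, 732 and 764 in MGSKO and 1899, 1981, 1901 and 1616 in WT (−1.21, SE 0.11, adjusted p = 0.000911). For both genes the lowest WT array, replicate 4, lay well above the highest MGSKO array. Ivd, the matching enzyme of the leucine branch, read 719.6, 778, 738 and 1077 in MGSKO and 1351, 1564, 1771 and 1282 in WT (−0.82, SE 0.16, adjusted p = 0.0408). MGSKO replicate 4 stood above the other MGSKO arrays and below the WT range. Pcca, a subunit of propionyl-CoA carboxylase, where the isoleucine and valine branches end, read 2424, 2065, 2113 and 2146 in MGSKO and 3945, 3482, 3368 and 3572 in WT (−0.70, SE 0.10, adjusted p = 0.0129).

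Most members that did not pass lay on the same side. Aldh6a1 of valine breakdown read 1921, 1954, 1899 and 1834 in MGSKO and 3519, 2124, 3629 and 3560.1 in WT (−0.71, SE 0.17, adjusted p = 0.0891), where WT replicate 2 lay far below the other WT arrays. The transacylase subunit Dbt stood at −0.53 and the inhibitory kinase Bckdk at −0.49 (adjusted p = 0.117 and 0.117). Klf15, a transcription factor of another list that raises amino acid breakdown genes, read 1102, 717, 617 and 563 in MGSKO and 2265, 1576, 1263 and 1229.5 in WT and did not pass (−1.03, SE 0.24, adjusted p = 0.0809). Leaving out 1 array in turn kept the call for Ivd in 2 of 8 fits (adjusted p up to 0.126) and Pcca in 5 (adjusted p up to 0.0633).

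**Figure D2:**
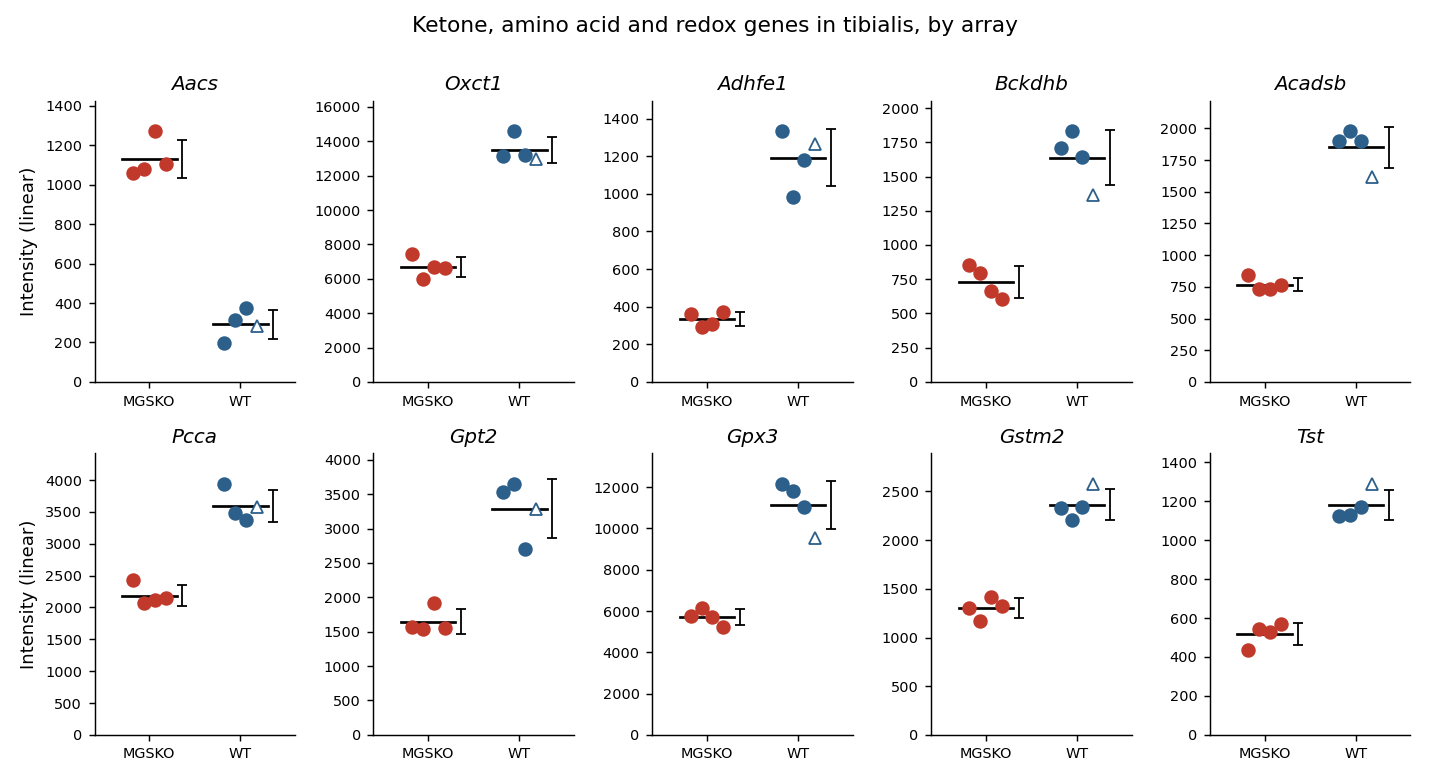
Intensity on a linear scale in the 4 MGSKO and 4 WT tibialis arrays for 10 genes, each by 1 probe set. The genes belong to the ketone list or to amino acid, sulphur and peroxide metabolism. Lines are means, bars beside them the SD, and the open triangle is WT replicate 4. The MGSKO points lie above all WT points for Aacs and below them for the other 9 genes.

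Gpt2, Glul, Mmab, Tst and Carns1 are outside the branched-chain list and were picked with their values in view. Gpt2, the alanine aminotransferase of mitochondria, read 1569.8, 1539, 1924 and 1550.1 in MGSKO and 3529, 3653, 2699 and 3284 in WT (−0.98, SE 0.13, adjusted p = 0.00853). Its other tested probe sets stood at −0.75 and −1.06 without passing. Glul, glutamine synthetase, read 2218, 2188, 2213 and 2349 in MGSKO and 4669, 3421, 4484 and 3094 in WT (−0.77, SE 0.15, adjusted p = 0.038), with 4 MGSKO arrays close together below a wide WT range. Mmab, which prepares the vitamin B12 cofactor used after propionyl-CoA, read 288 to 459 in MGSKO and 573 to 728 in WT (−0.75, SE 0.15, adjusted p = 0.0422). Tst, a sulphurtransferase of mitochondria, read 436, 545, 528 and 569 in MGSKO and 1124, 1129.6, 1169.8 and 1291 in WT (−1.11, SE 0.11, adjusted p = 0.00176), and every MGSKO array lay well under every WT array. Carns1, carnosine synthase, was higher, at 1107 to 1573 in MGSKO and 451 to 786 in WT (0.92, SE 0.18, adjusted p = 0.0434). When 1 array was left out, the call was kept for Glul in 1 of 8 fits (adjusted p up to 0.122), Mmab in 1 (adjusted p up to 0.127) and Carns1 in 1 (adjusted p up to 0.124), and Mmab stood at adjusted p = 0.0595 without WT replicate 4.

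Qprt, which makes a precursor of NAD from tryptophan breakdown, was dim in WT and higher in MGSKO by both probe sets. The first read 475, 698, 749.9 and 867 in MGSKO and 176, 87.1, 66.4 and 164 in WT (2.14, SE 0.25, adjusted p = 0.00343). The second read 569, 762, 857 and 985 in MGSKO and 255, 311, 348 and 238 in WT (1.31, SE 0.18, adjusted p = 0.00853). It was the only call among 9 tested genes of nicotinamide nucleotides. Odc1, which starts polyamine synthesis, was called lower by 3 probe sets, of which the best measured read 1548, 1433, 1641 and 1458 in MGSKO and 3717, 3071, 3635 and 3176 in WT (−1.13, SE 0.11, adjusted p = 0.00143). The other 2 stood at −0.97 and −1.03 (adjusted p = 0.043 and 0.0336), and their calls were kept in 1 of 8 fits each with 1 array left out (adjusted p up to 0.128 and 0.114). Without WT replicate 4 the adjusted p of these 2 was 0.0537 and 0.0125. It was the only call among 7 genes of the polyamine list.

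Genes of peroxide and glutathione defence were called lower and none higher. Of 27 tested genes 4 were lower (6 without WT replicate 4), and the median was −0.13. Gpx3, the secreted glutathione peroxidase, read 5767, 6161, 5706 and 5229 in MGSKO and 12172, 11805, 11027 and 9515 in WT (−0.95, SE 0.12, adjusted p = 0.00464). Gstm2, a cytosolic glutathione transferase, read 1302, 1166, 1415 and 1323 in MGSKO and 2335, 2205, 2338 and 2581 in WT (−0.84, SE 0.11, adjusted p = 0.00611). In both genes the lowest WT array lay more than 1.5-fold above the highest MGSKO array. The membrane-bound transferase Mgst1 read 4049 to 5457 in MGSKO and 7119 to 9403 in WT (−0.89, SE 0.14, adjusted p = 0.014), and Gstk1, a transferase of mitochondria and peroxisomes, stood at −1.01 (SE 0.16, adjusted p = 0.0197). Gstm1 and Gpx4 stood at −0.57 and −0.87 (adjusted p = 0.057 and 0.0918), and passed without WT replicate 4, at 0.0404 and 0.0129. Leaving out 1 array kept the call for Mgst1 in 4 of 8 fits (adjusted p up to 0.064) and Gstk1 in 3 (adjusted p up to 0.0775). Gpx4 in WT read 13972, 9972, 12004 and 6613, with replicate 4 near the MGSKO range of 4968 to 6387.

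The redox genes that follow are outside the list and, apart from Dcxr, were picked with their values in view. Msrb1, a selenoprotein that repairs oxidised methionine, read 5089, 4077, 4683 and 4427 in MGSKO and 7962, 8376, 7659 and 7434 in WT (−0.78, SE 0.11, adjusted p = 0.00915). Selenos, a selenoprotein of the endoplasmic reticulum, and Selenbp1, a selenium-binding protein, stood at −0.76 and −1.04 (adjusted p = 0.0187 and 0.011). Park7, the redox-sensing protein DJ-1, read 8140.1 to 10003 in MGSKO and 13034 to 16577 in WT (−0.64, SE 0.12, adjusted p = 0.0372). Dcxr, which reduces xylulose and dicarbonyls, read 157, 189, 151 and 80.1 in MGSKO and 613, 597, 623 and 364 in WT (−1.63, SE 0.22, adjusted p = 0.00853), where WT replicate 4 was far below the other WT arrays. The heat shock list held 1 call of 17 (0 without WT replicate 4). Cryab, the small chaperone bound to desmin, read 23199 to 26211 in MGSKO and 12746 to 17248 in WT (0.67, SE 0.12, adjusted p = 0.0351), a call that no fit with 1 array left out kept (adjusted p = 0.0508 without WT replicate 4 and up to 0.108). Among the others, it was kept for Selenos in 2 of 8 fits (adjusted p up to 0.0797), Selenbp1 in 7 (adjusted p up to 0.054) and Park7 in 1 (adjusted p up to 0.113).

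In the contractile apparatus a slow fibre gene was called strongly higher, and the fast fibre list held 1 call, by a dim probe set. Myl3 encodes the essential light chain of slow and cardiac myosin. It read 30284, 27359, 25045 and 25935 in MGSKO and 3712, 8692, 5578 and 5047 in WT (2.29, SE 0.22, adjusted p = 0.00143), and a dimmer probe set stood at 2.47 (adjusted p = 0.00176). The brightest one read 31014 to 36904 in MGSKO and 6112 to 12438 in WT (adjusted p = 0.00244). On all 3 the lowest MGSKO array was at least 2.49-fold above the highest WT array. Of 16 slow fibre genes it was the only call (3 without WT replicate 4), 11 had positive changes, and the median was 0.21.

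The slow and stretch-responsive genes nearest to the threshold did not overlap between groups, which held for 10.1% of all probe sets. They were named for having the smallest p among uncalled list members, which favours such separation. Csrp3, muscle LIM protein of the Z-disc, read 11335, 10775, 11301 and 7903 in MGSKO and 6816, 5156, 2847 and 3486 in WT (1.23, SE 0.26, adjusted p = 0.0541). Ankrd2, a titin-associated ankyrin repeat protein, read 13024, 13087, 13204 and 11868 in MGSKO and 9260.1, 7883, 4851 and 6603 in WT (0.87, SE 0.18, adjusted p = 0.054). Both read lower in MGSKO replicate 4 than in the other MGSKO arrays. Pln, the inhibitor of the slow calcium pump, read 836, 706, 709 and 713 in MGSKO and 333, 373, 411 and 591 in WT (0.75, SE 0.16, adjusted p = 0.0592; adjusted p = 0.0111 without WT replicate 4). Ankrd1, a relative of Ankrd2 raised by stretch and denervation, stood at 1.24 (adjusted p = 0.0592, and 0.0405 without WT replicate 4).

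Of 15 fast fibre genes 0 were called higher and 1 lower, and 4 had positive changes (median −0.05; 0.00 without WT replicate 4). That call was Tnni2, fast troponin I, by a dim probe set at 884 to 1108 in MGSKO and 1502 to 1766 in WT (−0.69, SE 0.11, adjusted p = 0.0202), while its brightest probe set stood at −0.10 (adjusted p = 0.682). The call was kept in 3 of 8 fits with 1 array left out (adjusted p up to 0.0749). Myh2, the type IIA myosin, read 33338 to 39428 in MGSKO and 23656 to 30408 in WT and did not pass (0.47, SE 0.12, adjusted p = 0.0949). Mybph, a myosin-binding protein, ranged from 1766 to 3745 in MGSKO and 244 to 2057 in WT, with groups that overlapped (1.61, SE 0.53, adjusted p = 0.192). Alpk3, a kinase needed for normal sarcomeres and picked with its values in view, read 2571, 3710.2, 3403 and 4314 in MGSKO and 8420.1, 8116, 7386 and 5522 in WT (−1.07, SE 0.19, adjusted p = 0.0275). Leaving out 1 array kept the call of Alpk3 in 2 of 8 fits (adjusted p up to 0.095).

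Actc1, the cardiac actin that skeletal muscle expresses during development, read 11810.4, 11174, 20322 and 13428 in MGSKO and 4951, 8211, 5399.7 and 7065 in WT (1.13, SE 0.22, adjusted p = 0.044). MGSKO replicate 3 was far above the other MGSKO arrays, and no fit with 1 array left out kept the call (adjusted p = 0.0508 without WT replicate 4 and up to 0.13). Myog, a muscle differentiation factor, read 414, 364, 627 and 414 in MGSKO and 125, 182, 242 and 281 in WT and did not pass (0.99, SE 0.22, adjusted p = 0.0694, and 0.0413 without WT replicate 4). Ppargc1a, the coactivator of mitochondrial genes, read 1443, 1787, 1424 and 1443 in MGSKO and 866, 846, 820.2 and 1259 in WT (0.67, SE 0.15, adjusted p = 0.0754), with WT replicate 4 close to the MGSKO arrays and adjusted p = 0.0165 without it.

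Genes of the nerve endplate and of denervation were called higher in part and none lower. Of 10 tested genes 2 were called higher and 0 lower, 8 had positive changes, and the median was 0.46 (0.38 with a common median). The summed intensity of the list was 11321 to 14210 in MGSKO and 9205 to 9732 in WT. Ache, acetylcholinesterase, read 2049, 2066, 2332 and 2362 in MGSKO and 599.7, 1112, 941 and 986 in WT (1.26, SE 0.18, adjusted p = 0.00928). Chrna1, a subunit of the acetylcholine receptor, read 1212, 1119.6, 1173 and 1278 in MGSKO and 773, 883, 619 and 557 in WT (0.74, SE 0.15, adjusted p = 0.0451). Nos1, Aqp4 and Dtna, which are known from the membrane complex around dystrophin, are outside that list and were picked with their values in view. Nos1, neuronal nitric oxide synthase, read 4858, 5484, 5152 and 4750.3 in MGSKO and 2118, 3519, 2293 and 2579.6 in WT (0.96, SE 0.16, adjusted p = 0.0205). Aqp4, the water channel of fast fibres, read 2434, 2684, 3196 and 2952 in MGSKO and 1063, 1191, 1442 and 2087 in WT (0.98, SE 0.20, adjusted p = 0.0492), and Dtna, dystrobrevin, stood at 0.73 (adjusted p = 0.0427) by 1 of 6 tested probe sets. In this group, leaving out 1 array kept the call for Chrna1 in 1 of 8 fits (adjusted p up to 0.131), Nos1 in 3 (adjusted p up to 0.0837), Aqp4 in 1 (adjusted p up to 0.143) and Dtna in 2 (adjusted p up to 0.13). Chrna1 stood at adjusted p = 0.0525 without WT replicate 4 and 0.123 with a common median, and Dtna at 0.0641 with a common median.

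**Figure D3:**
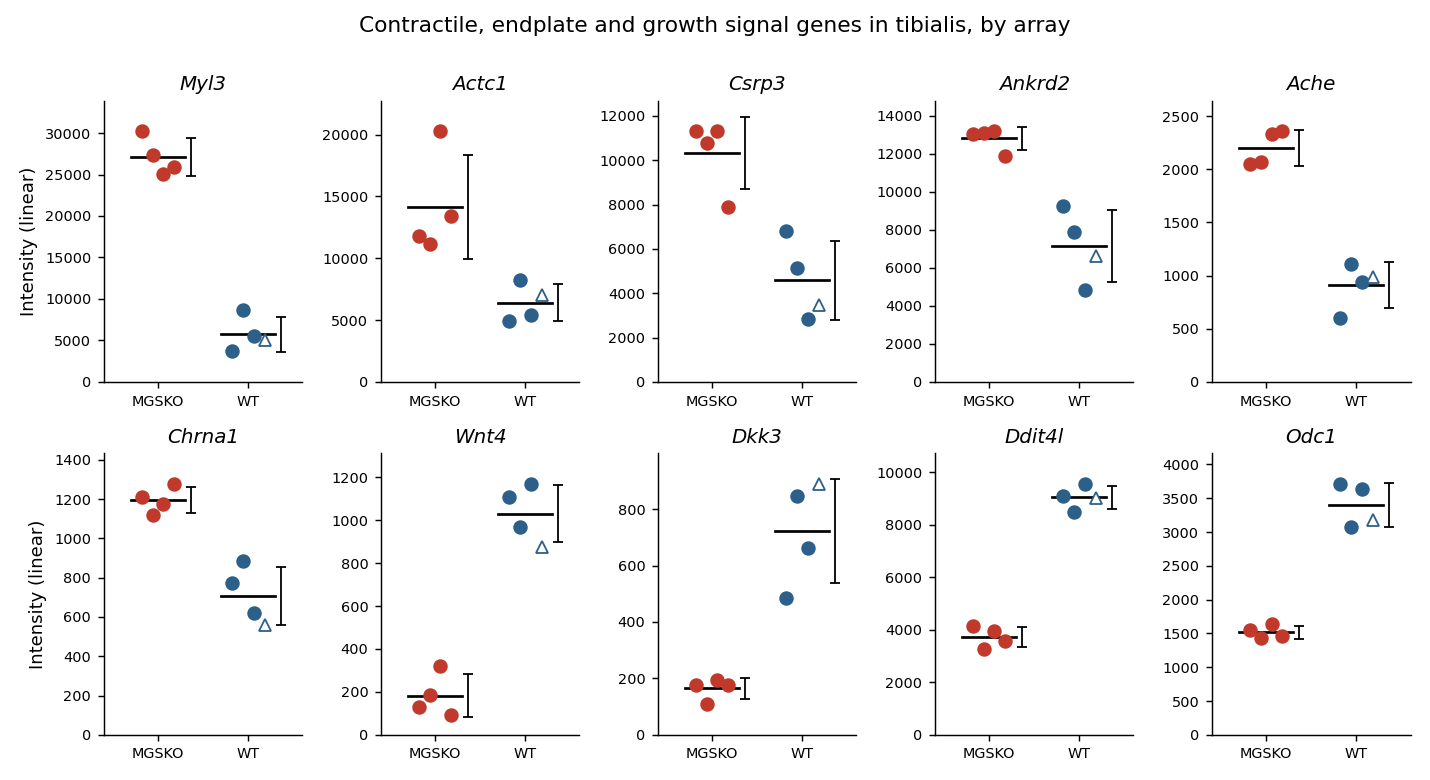
Intensity on a linear scale in the 4 MGSKO and 4 WT tibialis arrays for 10 contractile, endplate and growth signal genes, each by 1 probe set; lines are means, bars beside them the SD, and the open triangle is WT replicate 4. Myl3, Actc1, Csrp3, Ankrd2, Ache and Chrna1 lie higher in MGSKO and Wnt4, Dkk3, Ddit4l and Odc1 lower, with no overlap in any panel.

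Wnt4, Dkk3 and Frzb, a Wnt ligand and secreted modulators of Wnt signalling, were called lower. Of 29 tested genes of Wnt and growth factor signals 0 were called higher and 3 lower (1 higher and 2 lower without WT replicate 4), and the median was −0.01. Wnt4, a Wnt ligand of muscle and other tissues, read 132, 184, 321 and 94.4 in MGSKO and 1106, 969, 1170.3 and 875 in WT (−2.30, SE 0.26, adjusted p = 0.00284). Dkk3, a secreted member of the Dickkopf family, read 178, 109, 195 and 177 in MGSKO and 486, 845, 664 and 890.2 in WT (−1.83, SE 0.20, adjusted p = 0.00284). In both genes every WT array was at least 2.49-fold above every MGSKO array. The second probe set of Dkk3 stood at −1.37 (adjusted p = 0.0449) and kept its call in 1 of the 6 such fits that tested it. Frzb, a secreted decoy receptor for Wnt proteins, read 277 to 439 in MGSKO and 585 to 763 in WT (−0.78, SE 0.15, adjusted p = 0.0408), a call that no fit with 1 array left out kept (adjusted p = 0.0595 without WT replicate 4).

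Ddit4l, an inhibitor of the growth kinase mTORC1 that is abundant in muscle, was lower by both probe sets. The brighter in WT read 5184, 4142, 4499 and 3866 in MGSKO and 8731, 9995, 8778 and 10140.4 in WT (−1.09, SE 0.12, adjusted p = 0.00289). The other stood at −1.27 (adjusted p = 0.000812). Mtor, the kinase itself, read 2426, 2151, 2246 and 2610.2 in MGSKO and 1628, 1298, 1392 and 1165 in WT (0.77, SE 0.13, adjusted p = 0.021), a call kept in 2 of 8 fits with 1 array left out and at adjusted p = 0.0748 with a common median. Castor2, a relative of the arginine sensor of the mTORC1 pathway and picked with its values in view, read 591, 682, 977 and 652 in MGSKO and 1504, 1479, 1858 and 1538 in WT (−1.10, SE 0.16, adjusted p = 0.0109), and kept the call in 7 of those fits. Of 15 stress and growth arrest genes Ddit4l was the only call, and 5 had positive changes (median −0.23).

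Other signalling genes were among the largest changes. Agt, angiotensinogen, read 78.4, 87.6, 129 and 69.5 in MGSKO and 832, 616, 437 and 381 in WT (−2.09, SE 0.23, adjusted p = 0.00256), where the MGSKO values lie far below the array medians. Tnfrsf19, a receptor of the tumour necrosis factor family, read 538, 570.4, 528 and 378 in MGSKO and 1697, 1274, 1203 and 1096 in WT (−1.30, SE 0.17, adjusted p = 0.00656). Mycn, a transcription factor of the Myc family, read 91.2, 125, 186 and 132 in MGSKO and 698, 284, 581 and 1167 in WT (−1.88, SE 0.34, adjusted p = 0.0328), with a wide spread among WT arrays and a call kept in 2 of 8 fits with 1 array left out (adjusted p up to 0.105). Smoc1, a secreted calcium-binding matrix protein, read 819, 1131, 1092 and 936 in MGSKO and 310.5, 484, 162 and 255 in WT (1.63, SE 0.25, adjusted p = 0.014). Vash2, which removes the terminal tyrosine of tubulin, read 476, 430, 531 and 401 in MGSKO and 133, 126, 159 and 192 in WT (1.33, SE 0.14, adjusted p = 0.00176). Inha, the inhibin alpha chain, stood at 0.78 (adjusted p = 0.0293) and was picked with its values in view. Leaving out 1 array at a time kept the call for Smoc1 in 6 of 8 fits (adjusted p up to 0.062) and Inha in 2 (adjusted p up to 0.102).

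Slc38a10, a member of the SLC38 family of amino acid transporters, was among the genes of smallest adjusted p. Its first probe set read 6074, 6331, 6347 and 5901 in MGSKO and 1648, 2478, 1934 and 1970.2 in WT (1.61, SE 0.13, adjusted p = 0.00062). The next read 4352, 4228, 4958 and 4411 in MGSKO and 1649.6, 1623, 1455 and 1606 in WT (1.47, SE 0.10, adjusted p = 0.000236). The third called one stood at 1.23 (adjusted p = 0.00143), and 3 dimmer ones stood at 0.36 to 0.98 without passing. On the called probe sets the highest WT array was below the lowest MGSKO array by at least 1.86-fold.

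Further large rises were seen for Atp1b4, a muscle protein related to the beta subunits of the sodium pump (1.65), Ntsr2, a neurotensin receptor (1.64), Otub2, a deubiquitinase (1.19), Jpt1 (1.07), Gm13889 (1.79), Krtap5-1 (1.63) and 2310030G06Rik (1.11). Their adjusted p ran from 0.00143 (Jpt1) to 0.041 (2310030G06Rik). In Ntsr2, MGSKO replicate 2 read 1410.5 and the others 769.7 to 868, against 203 to 402 in WT. Further large falls were seen for 1700001O22Rik (−1.62), Ccrl2, a chemerin-binding receptor (−1.55), Tmem100 (−1.43), Gdap1, a protein of the outer mitochondrial membrane (−1.41), Zfp385a (−1.28), Tfcp2l1 (−1.17) and Hectd3, a ubiquitin ligase (−1.11). Their adjusted p lay between 0.00572 (Gdap1) and 0.0357 (Zfp385a). Of these, the call was kept with 1 array left out for Atp1b4 in 2 of 8 fits (adjusted p up to 0.0797), Krtap5-1 in 2 (adjusted p up to 0.119), 2310030G06Rik in 1 (adjusted p up to 0.126) and Ccrl2 in 2 (adjusted p up to 0.106). It was kept for Tmem100 in 3 of 8 fits (adjusted p up to 0.0777), Zfp385a in 1 (adjusted p up to 0.109), Tfcp2l1 in 2 of 5 (adjusted p up to 0.104), 1700001O22Rik in 4 of 5 (adjusted p up to 0.0548) and Hectd3 in 7 (adjusted p up to 0.0502). Without WT replicate 4, Ccrl2 and Zfp385a stood at 0.0525 and 0.0508. Picked with its values in view, Slc40a1, the iron exporter, read 1122 to 1451 in MGSKO and 1922 to 2825 in WT (−0.91, SE 0.14, adjusted p = 0.0153). Anapc5, a subunit of the anaphase-promoting complex, was called lower by 5 of 6 tested probe sets, at −0.68 to −0.58 (adjusted p = 0.013 to 0.0372). Its best measured probe set kept the call in 5 of 8 fits with 1 array left out, the others in 1 or 2, and Slc40a1 in 4.

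**Figure D4:**
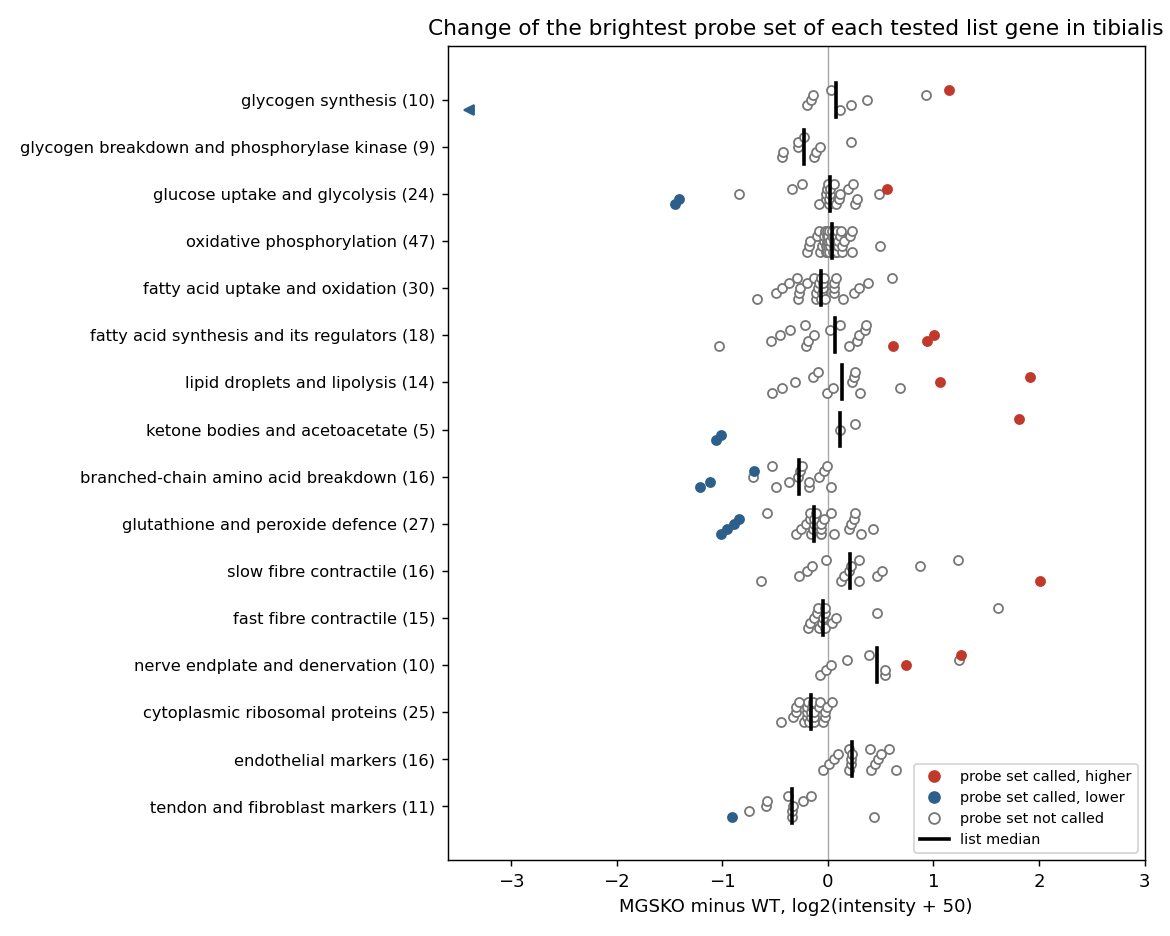
Change of the brightest probe set of each tested gene in 16 lists (number of genes in brackets), MGSKO minus WT on the log2(intensity + 50) scale; black bars are list medians, filled points are called probe sets, and the arrow at the left edge is Gys1 at −6.56. Branched-chain amino acid genes lie left of 0 except 1, endplate and endothelial genes mostly right of it, and oxidative phosphorylation genes close to it.

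Markers of other cells stood to one side beside some of these genes. Of 16 tested endothelial markers 0 were called by limma (9 higher and 0 lower at unadjusted p under 0.05) and 15 had positive changes (12 with a common median), with a median of 0.23 (0.13 with a common median). Their summed intensity was 31574 to 35796 in MGSKO and 23590 to 29555 in WT, lowest in WT replicate 4. Kdr, a receptor for vascular growth factor, read 2966, 2848, 3606 and 3198 in MGSKO and 1678, 2436, 2342 and 1628 in WT (0.65, SE 0.16, adjusted p = 0.0936). Tek stood at 0.40 and Egfl7 at 0.47 (adjusted p = 0.0914 and 0.0989). Egfl7 is given there by its probe set of smallest p, and its brightest probe set stood at 0.21 (adjusted p = 0.363) with groups that overlapped. Called higher genes also known from vessels, picked with their values in view, were Kank3 (0.86, SE 0.12, adjusted p = 0.00899), Ushbp1 (0.57, SE 0.10, adjusted p = 0.0281) and the transporter Abcg2 (0.61, SE 0.12, adjusted p = 0.0478), beside Fabp4 above. Tmem100, also known from vessels, went the other way (−1.43, SE 0.24, adjusted p = 0.023). With 1 array left out, Ushbp1 and Abcg2 kept the call in 2 and 0 of 8 fits, a common median ended both, and Abcg2 stood at adjusted p = 0.0595 without WT replicate 4. The part of the endothelial markers in these results was not tested.

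Of 11 tendon and fibroblast markers 1 was called lower (2 without WT replicate 4) and 1 had a positive change (median −0.34, and −0.48 without WT replicate 4). Their summed intensity was 37017 to 41811 in MGSKO and 40743 to 58856 in WT, lowest in WT replicate 4, so the groups overlapped. Fmod, a collagen-binding proteoglycan of tendon, was called by 3 of 6 probe sets, the brightest at 5544, 4604, 4525 and 4733 in MGSKO and 8624, 10644, 10980 and 6886 in WT (−0.91, SE 0.16, adjusted p = 0.0293; adjusted p = 0.00972 without WT replicate 4). The 3 kept the call in 1 or 2 of 8 fits with 1 array left out. The part of the other tendon markers in this result was not tested. Thbs4, a matrix protein of tendon and muscle, read 4169.8, 4058, 4437 and 3617 in MGSKO and 5812, 7303, 5567 and 5781 in WT (−0.58, SE 0.12, adjusted p = 0.0591). The defining gene Scx was dim, at 117 to 217 in MGSKO and 168 to 255 in WT. The adipocyte hormone Adipoq read 1494 to 2681 in MGSKO and 1279 to 5752 in WT, and Lep stayed at 29.0 to 110 in MGSKO and 34.6 to 134 in WT. Of 10 smooth muscle and pericyte markers 0 were called by limma and 8 had positive changes (median 0.30), with 4 higher and 0 lower at unadjusted p under 0.05. Of 25 ribosomal protein genes 0 were called and 1 had a positive change (median −0.16), with 0 higher and 4 lower at unadjusted p under 0.05.

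Other lists held no call by limma. These were the AMP-activated protein kinase (6 genes, median 0.00), mitochondrial biogenesis (19, 0.02), creatine and purine nucleotides (9, 0.02), the unfolded protein response (19, 0.06), calcium handling (23, 0.03), Z-disc and cytoskeleton (24, 0.07), ion channels and pumps (12, 0.02), the circadian clock (15, −0.14), the interferon response (21, 0.16) and collagen and matrix (28, 0.06). At unadjusted p under 0.05 the most in 1 direction were 8 higher genes of collagen and matrix, 7 of Z-disc and cytoskeleton and 6 of the interferon response. Over all genes 884 of 8259 were higher at that threshold. Without WT replicate 4, 1 gene was called higher in each of mitochondrial biogenesis, Z-disc and cytoskeleton, and ion channels and pumps. Markers of Schwann cells, macrophages, lymphocytes, erythrocytes, hepatocytes and skin held 0 calls, with 1 lower Schwann cell gene at unadjusted p under 0.05. In the remaining lists the calls were 1 higher and 0 lower of 25 for ubiquitin ligases and muscle atrophy, 2 higher and 0 lower of 15 for muscle development and regeneration, and 0 higher and 1 lower of 16 for nuclear receptors and hormone signals. Without WT replicate 4 there were 1 higher and 1 lower for atrophy, 1 higher for development and 0 for hormone signals, where Agt did not pass the dim filter. Of 12 genes that define skeletal muscle 0 were called higher and 1 lower (median −0.04). Of 5 adipocyte markers 1 was called higher and 1 had a positive change (median −0.19), and of 4 sex-linked genes 0 were called by limma (1 higher and 1 lower at unadjusted p under 0.05, and 1 called higher without WT replicate 4).

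Genes near Gys1 were counted apart because the strain is mixed and DNA around a disrupted gene can come from one of the parent strains. Which strain it came from here was not tested. Of the 200 protein-coding genes nearest in gene order, 100 on each side, 66 were tested and 3 called (4.55%), against 1.83% of all genes, and groups did not overlap in 13.6% of them and 13.6% of all. The 3 were Nomo1, a protein of the endoplasmic reticulum and the 36th gene on its side, Nav2, a cytoskeletal protein at 78, and Prmt3, an arginine methyltransferase at 81. Nomo1 read 1988 to 2127 in MGSKO and 2991 to 3507 in WT (−0.64, SE 0.10, adjusted p = 0.0147). Nav2 read 1302, 1561, 1456 and 1569 in MGSKO and 884, 681, 690.4 and 846 in WT (0.89, SE 0.12, adjusted p = 0.00953). Prmt3 read 659.7 to 783 in MGSKO and 961 to 1132 in WT (−0.51, SE 0.10, adjusted p = 0.0492). With 1 array left out, Nomo1 and Prmt3 kept the call in 3 and 1 of 8 fits. Csrp3, given above among the contractile genes and not called, lies on the same side at 76. Within 50 genes on each side 1 of 46 was called, and on the whole of chromosome 7 it was 13 of 606 (2.15%).

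The called changes were then read in the knockout gastrocnemius, whose 3 MGSKO and 5 WT arrays took no part in choosing them. The labels do not say whether both muscles came from the same mice. Of 180 called probe sets tested there, Gys1 left out, 160 had the same direction (88.9%), against 7038 of 12747 of all tested probe sets (55.2%). At unadjusted p under 0.05 by limma 90 had the same direction (50%) and 1 the opposite, against 975 (7.65%) and 462 of all. The called higher had a median of 0.42 in gastrocnemius and 0.82 in tibialis, the called lower −0.41 and −0.89, and 13 were called in gastrocnemius. The probe sets were chosen by their tibialis values, which favours larger medians in tibialis. These medians therefore do not measure a difference between the muscles. Of the 283 called without WT replicate 4 the share in the same direction was 72.4%. Among the genes above, Aacs was called there at 1.28 (adjusted p = 0.0454), Ppp1r1a at −1.68 (adjusted p = 0.0392), Dkk3 at −1.64 (adjusted p = 0.0392) and Tecr at 0.86 (adjusted p = 0.0392). Ifi30 stood at 1.71 (adjusted p = 0.0932), Myl3 by its dimmest probe set at 1.10 (adjusted p = 0.0977), Nos1 at 1.42 (adjusted p = 0.0977) and Acadsb at −0.81 (adjusted p = 0.122). Of the 119 called probe sets described, 7 had the opposite sign there, at adjusted p = 0.574 to 0.992. The probe sets of Qprt stood at −0.71 and −0.46 in gastrocnemius (SE 0.51 and 0.47), G0s2 at −0.44 (SE 0.46) and Lpgat1 at −0.23, and Gpx3, Alpk3 and Hectd3 at 0.00 to 0.15. Hepatocyte markers were lower in MGSKO than in WT gastrocnemius with wide errors, such as Fgb at −1.83 (SE 1.10) and Tat at −1.45 (SE 0.90). Without probe sets bright in liver, 136 of 148 called ones had the same direction (91.9%). The part of liver transcripts in the gastrocnemius values was not tested.

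**Figure D5:**
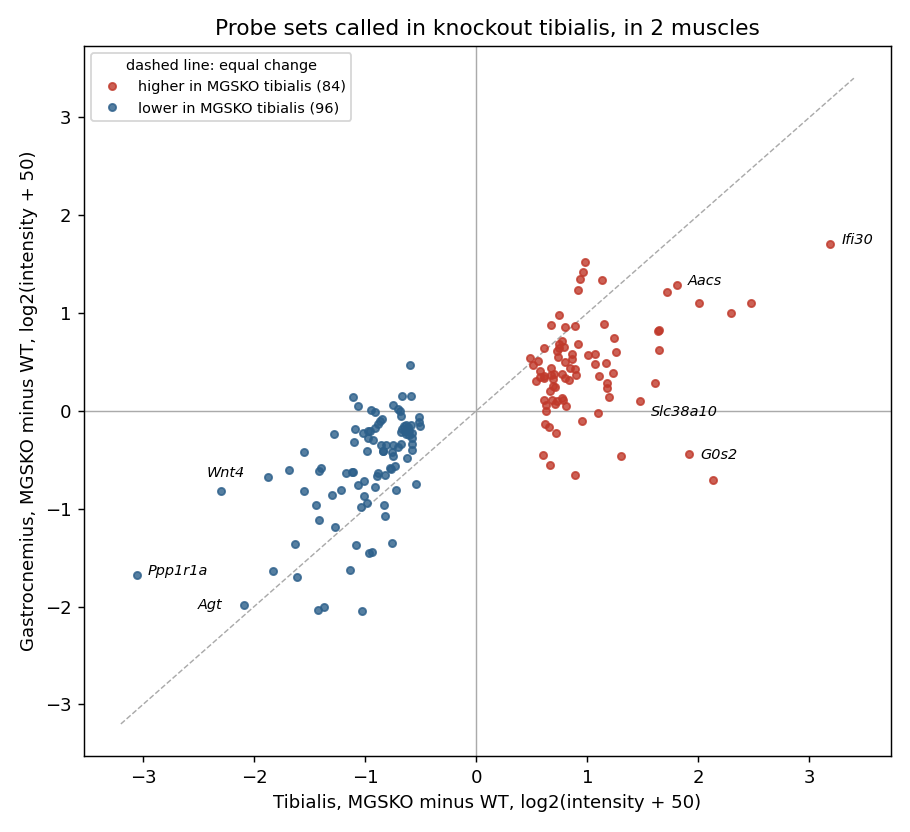
Change on the log2(intensity + 50) scale, MGSKO minus WT, of 180 probe sets called in knockout tibialis, with tibialis on the x axis and gastrocnemius on the y axis. Of these, 160 lie in the quadrants of equal sign, most of them nearer to 0 in gastrocnemius, and G0s2 and Slc38a10 lie near or across 0 there. The probe sets were chosen by their tibialis values, which favours larger changes on the x axis.

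The difference between the 2 muscles was tested directly, and only Slc38a10 passed, by 2 probe sets of 13576 (0.0147%), with 1364 at unadjusted p under 0.05 (10%). The tibialis change exceeded that in gastrocnemius by 1.32 (SE 0.18, adjusted p = 0.0340) and 1.37 (SE 0.21, adjusted p = 0.0411). In gastrocnemius the first probe set read 1726, 1898 and 1744 in MGSKO and 1531, 1177, 1634, 1474 and 1496 in WT, so every array there lay below the tibialis MGSKO range. Without 1 array the number of probe sets that differed ran from 0 to 7 (without tibialis WT replicate 4), and without the dim filter it was 0. The next smallest p-values belonged to Scd2 (−1.09), an unnamed probe set (1.54), Hectd3 (−1.25), Gpx3 (−0.96), Prxl2b (−0.87), Myog (1.58) and Map2k6 (−1.19), at adjusted p = 0.0635 to 0.100.

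In the GSL30 gastrocnemius 69 of 177 probe sets called in knockout tibialis had the same direction (39.0%), against 47.8% of all tested. At unadjusted p under 0.05 by limma 26 had the same and 40 the opposite direction, against 1172 and 1584 of all. Of the 177, 28 were called there, against 551 of 12803 of all, and the genes that follow are examples. Ppp1r1a was higher there (0.74, SE 0.17, adjusted p = 0.0267) and Myl3 lower by the probe set given above (−0.84, SE 0.15, adjusted p = 0.0108), both opposite to knockout tibialis. Actc1 was higher in both (1.85, SE 0.18, adjusted p = 0.00134 in GSL30). Age, muscle and genotype differ together between these comparisons. In knockout liver 64 of 136 had the same direction (47.1%), against 48.8% of all tested, and 0 were called there by limma (3 in the same and 8 in the opposite direction at unadjusted p under 0.05).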

How the data were processed

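The deposited table holds intensities on a linear scale for 22690 probe sets, which the authors had scaled so that trimmed means of the arrays agree near 1000, as read from the values. Per the labels, RNA was extracted with TRIzol and RNeasy and hybridised by standard Affymetrix procedures. No source used here names the program by which probes were summarised. After 64 control probe sets were left out, 13576 passed a filter that kept those at or above the 40th percentile of mean intensity over the 8 arrays. The deposited intensities became log2(intensity + 50) values, which shrinks the changes of dim genes, and were fitted with limma 3.58.1 in R 4.3.3 (lmFit, eBayes), with Benjamini-Hochberg adjustment over all probe sets tested. The difference between muscles was a contrast over 16 arrays.

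GEO's platform annotation gave 1 symbol for 20393 probe sets, several for 691 and none for 1606, and only the first kind was named. Of 935 entries in 49 gene lists 815 had a probe set, 8 of them through an older symbol. A list was described by calls over all probe sets of its genes and by the median change of the brightest one, with summed intensity over the brightest.

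The members and lists were chosen with earlier results of these data known. Named were Gys1, the 20 called genes that rose most and the 20 that fell most, called list members, uncalled members of smallest p, called neighbours of Gys1, the smallest p-values of the difference between muscles and markers of other cells. Where a gene falls outside this rule, the text says that it was picked with its values in view. Uncalled genes given with a change are shown by their tested probe set of smallest p, a choice that favours groups that do not overlap. Promoters were RefSeq's of GRCm38.p6. Alternatives were another scaling, pseudocount, filter, fit or set of arrays. Some were chosen after seeing the data, among them the lists without WT replicate 4 and the lists with a common median. The others were the gastrocnemius comparisons without probe sets bright in liver and for probe sets called with and without WT replicate 4. Samples share no replicate numbers in the labels.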

Additional observations from a re-analysis of the deposited data

Results flagged for a closer look

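Among 302 groups of 4 values of the named probe sets, 28 held an array far from the others by Dixon's criterion, against the 1 in 20 that chance gives, and 4 of these were WT replicate 4. That array was the lowest of its group for Slc2a3 (651.3, the others 798.8 to 805.8) and Dcxr (364.1, the others 597 to 623). It was the highest for Phkb (9415, the others 6287 to 6688) and Ppargc1a (1259, the others 820.2 to 866). MGSKO replicate 2 was also far from its group for Ppargc1a, at 1787 with the others at 1424 to 1443.

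MGSKO replicate 2 stood apart for 6 probe sets in all. It was low for Pdhb (20688, the others 22917 to 23347), Aacs (687, the others 872 to 901) and 1 probe set of Slc38a10 (6982, the others 8112 to 8286). It was high for Egln3 (3005, the others 2546 to 2621) and Ntsr2 (1410.5, the others 769.7 to 868). MGSKO replicate 4 was low for Csrp3 (7903, the others 10775 to 11335), Ankrd2 (11868, the others 13024 to 13204) and Dlat (5746, the others 7208 to 7481), and high for Ivd (1077, the others 719.6 to 778). MGSKO replicate 1 was high for Oxct1 by 1 probe set (4409.5, the others 2899.7 to 2987), for Adhfe1 (537, the others 452 to 466) and for Pln (836, the others 706 to 713). MGSKO replicate 3 was high for Gpt2 (1924, the others 1539 to 1569.8) and for 1 probe set of Fmod (2491, the others 2279.5 to 2297).

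Of the WT arrays, replicate 2 was high for Oxct1 by its brightest probe set (14617, the others 12967 to 13215), Phka1 (11175, the others 9043 to 9340.4), Acadm (16348, the others 13089.8 to 13481) and Thbs4 (7303, the others 5567 to 5812), and low for Aldh6a1 (2124, the others 3519 to 3629). WT replicate 3 was low for Mid1ip1 (1635, the others 2365 to 2497), Sort1 (1643.5, the others 2089 to 2162) and Inha (733, the others 905 to 922), and high for Castor2 (1858, the others 1479 to 1538).

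The change in tibialis differed from that in gastrocnemius for Slc38a10, by 1.32 and 1.37 on the log2 scale by 2 probe sets, in a test of the difference itself.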

How the results depend on the processing

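The count of called probe sets depended on the filter and on single arrays. It was 190 as reported, 96 with no dim filter, 288 with the filter at the 60th percentile, 291 with all 34 arrays in 1 fit, 321 with trended and robust eBayes and 335 with array weights. Calls higher numbered 90, with 50 under a common median, 47 with no dim filter, 147 with all arrays in 1 fit, 140 with trended eBayes and 168 with array weights. Calls lower numbered 100, with 49, 153, 181 and 167 under no dim filter, the 60th percentile, trended eBayes and array weights. With 1 array left out, calls ran from 63 to 300, calls higher from 31 to 160 and calls lower from 32 to 140 (60 was the most without an array other than WT replicate 4). A common median and quantile normalization gave 158 and 193 calls, of which 31.6% and 43.0% were higher, against 47.4% as deposited. Probe sets that differed between muscles numbered 2 as reported, 6 with a pseudocount of 200, 0 with no dim filter and 0 to 7 with 1 array left out. Called neighbours of Gys1 numbered 3, with 1 and 5 within 50 and 200 genes on each side. No named probe set changed direction under any alternative that was run. Of 118 called ones besides the brighter Gys1 probe set, 5 lost the call with quantile normalization, 12 with a pseudocount of 1, 15 with all arrays in 1 fit, 17 with a common median and 55 with no dim filter, where more probe sets share the adjustment. No paired analysis was possible because the labels give the arrays no replicate numbers that groups share. The precision is limited by 4 arrays a group, and probe sets far below the array medians, such as those of Gys1 in MGSKO, give only a lower limit of a change.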
